A study of Mus musculus with 16 samples.

Results

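The genes described here are 10 components of growth factor signalling, namely the receptors *Egfr*, *Fgfr1*, *Fgfr2* and *Fgfr3*, the feedback inhibitors *Spry1*, *Spry2*, *Spry4* and *Dusp6*, and the transcription factors *Etv4* and *Etv5*. They were chosen by name from the 50600 genes listed in the expression tables, and all 10 were found and passed the filter on low counts. RNA-seq was performed on clonal mouse cells carrying 1 genome of strain 129Sv and 1 of Cast/EiJ, so that reads over strain variants could be assigned to an allele. The 16 libraries came from 12 clones. Neural progenitor cells (NPCs) were derived from hybrid embryonic stem cells, each clone grown from a hand-picked colony, and kept in N2B27 medium with EGF and FGF2, both at 10 ng/mL. Astrocytes were obtained from NPC clones by 48 h in N2B27 with FGF2 at 1 ng/mL and BMP4 at 10 ng/mL, a medium for which no EGF is named. The 5 astrocyte libraries were from clones 129, C2 and G4 (female) and mC3 and mE6 (male). The 3 NPC libraries made by the same poly(A) selection were from clones F5 (female), mG2 and mG6 (male). The other 8 NPC libraries were depleted of ribosomal RNA and came from the male clones Ch3, Ch5, Ch7 and Ch8, each sequenced as 2 libraries. Among these 16 libraries no clone was present both as NPC and as astrocyte, so here the change of cell type, the change of medium and the difference between clones cannot be told apart.

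Growth factors of the EGF and FGF families bind receptor tyrosine kinases on the cell surface and, through RAS, switch on the MAP kinase ERK. Neural stem cell cultures are kept dividing by EGF and FGF2, and ERK activity in turn raises transcription of *Etv4* and *Etv5*, of the Sprouty genes and of *Dusp6*. Sprouty proteins dampen receptor signalling, and DUSP6 is a phosphatase that inactivates ERK in the cytoplasm, which makes these genes a customary readout of FGF activity as well as its brake. BMP4 acts through a separate receptor family and the SMAD proteins.

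In the GRCm38 assembly, used by the authors, *Egfr* (ENSMUSG00000020122.16) lies on chromosome 11 from 16752203 to 16913907. *Fgfr1* (ENSMUSG00000031565.18) lies on chromosome 8 from 25518759 to 25575718, *Fgfr2* (ENSMUSG00000030849.18) on chromosome 7 from 130162451 to 130266808 and *Fgfr3* (ENSMUSG00000054252.17) on chromosome 5 from 33721724 to 33737068. *Spry1* (ENSMUSG00000037211.12) is on chromosome 3, *Spry2* (ENSMUSG00000022114.4) on chromosome 14 and *Dusp6* (ENSMUSG00000019960.8) on chromosome 10. *Etv4* (ENSMUSG00000017724.14) shares chromosome 11 with *Egfr*, and *Etv5* (ENSMUSG00000013089.15) is on chromosome 16.

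The 250 bases before the gene start are shown for the 3 genes whose expression fell in astrocytes and, for contrast, for *Spry1*, a Sprouty gene whose change did not pass the test. They are RefSeq sequences of GRCm38.p6, at chr11:16751953-16752202 (plus strand), chr10:99262981-99263230 (plus strand), chr14:105896820-105897069 (minus strand) and chr3:37639697-37639946 (plus strand). Capitals mark a match to the ETS letters CCGGAA on either strand, to the AP-1 letters TGANTCA or to the CRE letters TGACGTCA.
Egfr: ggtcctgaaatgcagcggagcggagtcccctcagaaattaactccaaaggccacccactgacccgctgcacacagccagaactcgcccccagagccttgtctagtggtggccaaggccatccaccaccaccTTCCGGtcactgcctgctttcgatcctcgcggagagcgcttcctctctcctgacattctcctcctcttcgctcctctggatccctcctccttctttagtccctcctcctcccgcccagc
Dusp6: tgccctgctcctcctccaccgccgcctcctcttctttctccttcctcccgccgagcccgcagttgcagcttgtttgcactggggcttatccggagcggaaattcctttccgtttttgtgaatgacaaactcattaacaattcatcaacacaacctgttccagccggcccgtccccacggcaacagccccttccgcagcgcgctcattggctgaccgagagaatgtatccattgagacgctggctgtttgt
Spry2: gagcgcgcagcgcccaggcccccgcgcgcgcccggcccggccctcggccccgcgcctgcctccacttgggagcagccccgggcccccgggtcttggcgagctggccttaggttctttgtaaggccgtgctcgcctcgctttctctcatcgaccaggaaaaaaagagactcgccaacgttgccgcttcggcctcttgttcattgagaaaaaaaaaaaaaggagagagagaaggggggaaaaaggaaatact
Spry1: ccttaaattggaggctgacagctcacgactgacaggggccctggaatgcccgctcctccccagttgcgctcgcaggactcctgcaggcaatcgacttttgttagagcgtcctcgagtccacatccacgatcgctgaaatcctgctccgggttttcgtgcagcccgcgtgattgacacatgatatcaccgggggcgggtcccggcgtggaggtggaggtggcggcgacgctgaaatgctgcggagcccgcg
The single match was an ETS core in the *Egfr* window, beginning at position -119 from the gene start and read on the opposite strand. CCGGAA was present in 12% of the 32851 mouse windows of this length, TGANTCA in 6.75% and TGACGTCA in 1.55%, and no other motif overlapped the match. The letters GGCGCC, found in GC-rich SMAD elements, were absent from the 4 windows shown and present in 9.59% of all windows. Both Sprouty windows were 62.4% G and C, the *Egfr* window 60.8% and the *Dusp6* window 56.4%, against a median of 52.4% over all windows. These letters were searched in 250 bases only, and their presence or absence is a description of the sequence.

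Sequencing depth was 78257443 to 93963293 counted reads in the astrocyte libraries, 69925081 to 105892734 in the poly(A) NPC libraries and 20871111 to 30920672 in the ribosomal RNA-depleted ones. Marker genes were examined against the labels. *Gfap* was at 65.4 to 1977 CPM (reads per 1000000 counted, on normalised library sizes) in astrocytes and at 0.669 to 2.12 CPM in poly(A) NPCs, while *Aldh1l1*, another astrocyte marker, was lower in astrocytes by 2.94-fold (edgeR adjusted p = 0.0366). The summed level of 4 proliferation markers was 1090 to 1250 CPM in poly(A) NPCs and 8.99 to 25.1 CPM in astrocytes, and that of 5 BMP targets was 152 to 283 CPM and 1340 to 3020 CPM. Oligodendrocyte *Sox10* and microglial *Cx3cr1* were at or close to 0 throughout. Chromosome 18 departed from balanced alleles in clones mG2 and G4, and chromosome 3 in G4, as described with *Spry4* and *Spry1*. The astrocyte titles carry 2 different codes, A234 (clones 129, mC3 and mE6) and B129 (C2 and G4), whose meaning is not given, and the poly(A) NPC titles carry a further code. No code was shared by both groups, so code and cell type cannot be told apart either.

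First, expression of the 10 genes was compared between the 5 astrocyte and the 3 poly(A) NPC clones. *Egfr*, *Dusp6* and *Spry2* fell in astrocytes, by 9.07-fold, 3.42-fold and 2.82-fold, and no member rose (edgeR quasi-likelihood test, Benjamini-Hochberg adjusted p below 0.05 over all 18192 genes tested). These 3 of 10 genes, or 30%, stand beside 25.5% of all genes called in either direction, 12.6% lower and 13% higher in astrocytes. The share of members called was therefore near that of all genes. The median log2 fold change of the members was -0.37, against 0.08 over all genes tested. At an unadjusted p below 0.05, 6 members (4 lower and 2 higher) and 7174 genes passed, and DESeq2 called 1 member higher.

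**Figure D1:**
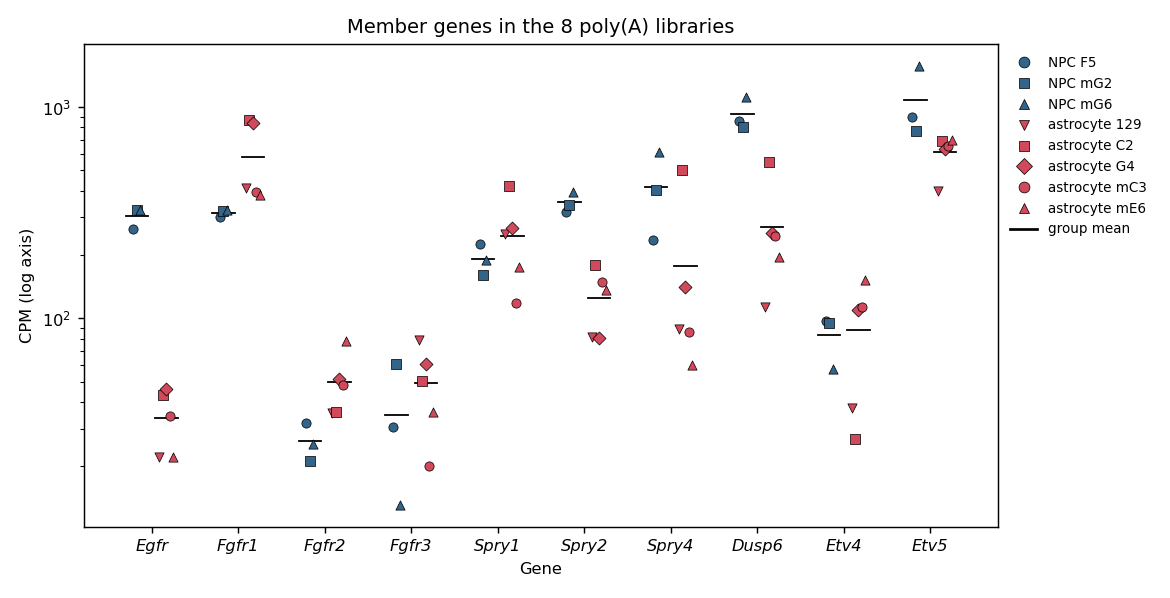
Expression of the 10 genes (x axis) in CPM on a log axis for each of the 3 poly(A) NPC libraries (blue) and 5 astrocyte libraries (red), with a marker shape for each clone and a horizontal line at the group mean. All astrocyte points of *Egfr*, *Spry2*, *Dusp6* and *Etv5* lie below all NPC points, and clone C2 is the highest astrocyte point for *Spry4* (503 CPM) and *Dusp6* (549 CPM).

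Of the receptors, *Egfr*, which binds EGF and its relatives, changed most. Its level was 263 CPM in NPC clone F5, 325 in mG2 and 324 in mG6. In astrocytes it was 22.02 CPM in clone 129, 43.25 in C2, 45.9 in G4, 34.4 in mC3 and 21.99 in mE6. Every astrocyte library was thus far below every NPC library. The group means were 304 ± 35.7 CPM (SD, n = 3) in NPCs and 33.5 ± 11.3 CPM (SD, n = 5) in astrocytes, a log2 fold change of -3.18 (SE 0.286, 95% confidence interval -3.83 to -2.53, adjusted p = 0.000259). With each library left out in turn the log2 fold change stayed between -3.35 and -3.06 and the adjusted p at or below 0.00187. An exact permutation test of log2 CPM gave p = 0.0179 (two-sided), the smallest that 5 against 3 libraries allow. The genes whose log2 CPM followed *Egfr* most closely over the 8 poly(A) libraries were *Cenpe* (Pearson r = 0.9967), *Atad5* (0.9931) and *Cit* (0.9906). These values share libraries and depth and largely restate the gap between both groups. Proliferation markers fell in the same libraries (*Mki67* by 345-fold, adjusted p = 7.8e-05), and their part in the *Egfr* result was not tested. In bulk libraries such as these, fewer cells of a type and less RNA per cell cannot be told apart.

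None of the 3 FGF receptors was called. *Fgfr1*, the FGF receptor with the most reads in these cells, was at 301 CPM in F5, 321 in mG2 and 326 in mG6. In astrocytes it was at 871 CPM in C2 and 840 in G4, the clones with code B129, and at 411 in 129, 395 in mC3 and 381 in mE6, those with code A234. The groups did not overlap, at 316 ± 13.4 (SD, n = 3) against 580 ± 252 CPM (SD, n = 5), but the log2 fold change of 0.88 (SE 0.35, 95% confidence interval 0.08 to 1.67) missed the threshold (adjusted p = 0.0987). With the B129 clones alone it was 1.45 (adjusted p = 0.0111) and with the A234 clones alone 0.29 (adjusted p = 0.24). The difference between the codes was not tested.

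*Fgfr2* was at 32.0 CPM in F5, 21.0 in mG2 and 25.2 in mG6, and at 35.4 in 129, 36.0 in C2, 51.3 in G4, 48.3 in mC3 and 78.0 in mE6. All astrocyte values were higher, with a log2 fold change of 0.93 (SE 0.298, 95% confidence interval 0.25 to 1.61) that lay at the threshold (adjusted p = 0.0504). It passed with DESeq2 (adjusted p = 0.0372) and without clone 129 (0.0356), and its adjusted p was between 0.0548 and 0.177 when any other library was left out. *Fgfr3* spread over 13.1 to 60.8 CPM among NPCs and 19.9 to 78.6 CPM among astrocytes, a 4.66-fold and a 3.94-fold range. Its groups overlapped and its log2 fold change was 0.50 (95% confidence interval -0.75 to 1.74, adjusted p = 0.541).

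Because reads accumulate with transcript length, genes were compared with each other only after division by the summed exon length. Per kb, *Fgfr1* made up 77.5 to 88.7% of the 3 FGF receptors in poly(A) NPCs and 75.7 to 90.0% in astrocytes, and *Fgfr2* and *Fgfr3* were the lesser part in every clone. In poly(A) NPCs the level per kb ran from *Dusp6* (331 ± 57.4 CPM per kb, SD, n = 3) through *Etv5* (262 ± 104) and *Spry2* (169 ± 19.2) down to *Fgfr2* (3.35 ± 0.71). Neighbours in this order overlapped in their ranges except at the steps from *Spry2* to *Spry4*, *Spry1* to *Fgfr1*, *Fgfr1* to *Egfr* and *Etv4* to *Fgfr3*. *Egfr* stood at 26.9 ± 3.15 CPM per kb in these cells, next to *Etv4* (26.7 ± 7.14). In astrocytes it was the lowest of the 10 genes, at 2.96 ± 1.0 CPM per kb (SD, n = 5), and its range of 1.94 to 4.06 lay under the 4.54 to 10.0 of *Fgfr2*.

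Among the feedback inhibitors, *Dusp6*, the ERK phosphatase, was at 862 CPM in F5, 807 in mG2 and 1108 in mG6. Astrocyte values were 113 in clone 129, 549 in C2, 253 in G4, 246 in mC3 and 195 in mE6, all below the NPC clones but spread over 4.87-fold. The log2 fold change was -1.77 (SE 0.438, 95% confidence interval -2.77 to -0.77, adjusted p = 0.0206), with means of 926 ± 160 and 271 ± 165 CPM (SD, n = 3 and n = 5). The call did not survive the loss of any NPC library, with an adjusted p of 0.0547 without F5, 0.0538 without mG2 and 0.0632 without mG6, at log2 fold changes of -1.82, -1.87 and -1.68. It was also lost with the B129 astrocytes alone (log2 fold change -1.20, adjusted p = 0.0889). The genes most like *Dusp6* over the 8 libraries were *Gm11639* (r = 0.9849), *Nrk* (0.9828) and *Gpr98* (0.9737).

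*Spry2*, a Sprouty inhibitor of receptor signalling, was at 319 CPM in F5, 343 in mG2 and 397 in mG6. In astrocytes it was at 81.2 in 129, 179 in C2, 80.6 in G4, 149 in mC3 and 136 in mE6, so that the highest astrocyte clone stayed well under the lowest NPC clone. The log2 fold change was -1.497 (SE 0.285, 95% confidence interval -2.15 to -0.85, adjusted p = 0.00771), and it passed the test without any single library (adjusted p 0.00702 to 0.03). With the B129 astrocytes alone the change was of like size (-1.44) and missed the threshold (adjusted p = 0.0513).

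*Spry4* and *Spry1*, of the same family, gave no call. *Spry4* was at 233 CPM in F5, 406 in mG2 and 611 in mG6, and at 89.2 in 129, 503 in C2, 140 in G4, 85.6 in mC3 and 59.8 in mE6. Clone C2 alone overlapped the NPC range. The log2 fold change was -1.25 (SE 0.692, 95% confidence interval -2.82 to 0.33, adjusted p = 0.217), and without C2 it was -2.18 (adjusted p = 0.00927). C2 also had the highest *Spry1*, *Spry2*, *Dusp6* and *Fgfr1* and the lowest *Etv4* and *Gfap* (65.4 CPM) of the astrocytes. *Col1a1*, a collagen gene of fibroblasts, reached 211 CPM in C2 and 2.39 to 34 in the other astrocytes, whereas *Col1a2* was at 0.0397 CPM and *Dcn* at 1.15 in C2, and summed fibroblast markers were at 4.05 to 217 CPM in astrocytes and 2.86 to 12.7 CPM in NPCs. Their part in the *Spry4* result was not tested. *Spry1* ranged from 160 to 224 CPM in NPCs and from 118 (mC3) to 421 (C2) in astrocytes, with a log2 fold change of 0.37 (95% confidence interval -0.49 to 1.22, adjusted p = 0.511).

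The ETS factors, transcription factors downstream of ERK, did not pass the test either. *Etv5* was at 899 CPM in F5, 768 in mG2 and 1563 in mG6, and at 400.5 in 129, 691 in C2, 629 in G4, 652 in mC3 and 696 in mE6. All astrocyte clones were lower, at 613 ± 122 (SD, n = 5) against 1080 ± 426 CPM (SD, n = 3), and the exact permutation test gave p = 0.0179 (two-sided). The log2 fold change was -0.81 (SE 0.287, 95% confidence interval -1.47 to -0.16, adjusted p = 0.069). DESeq2 called it (adjusted p = 0.0424). *Etv4* was at 57.4 to 96.6 CPM in NPCs. Its astrocyte clones fell on both sides, with 26.7 CPM in C2 and 37.5 in 129, and 109 in G4, 113 in mC3 and 152 in mE6, and the log2 fold change was 0.08 (95% confidence interval -1.17 to 1.32, adjusted p = 0.935). Counting all members, 6 of 10 had groups that did not overlap, compared with 32.7% of all genes tested, and 4 of 10 had every astrocyte library below every NPC library, compared with 16.3%.

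**Figure D2:**
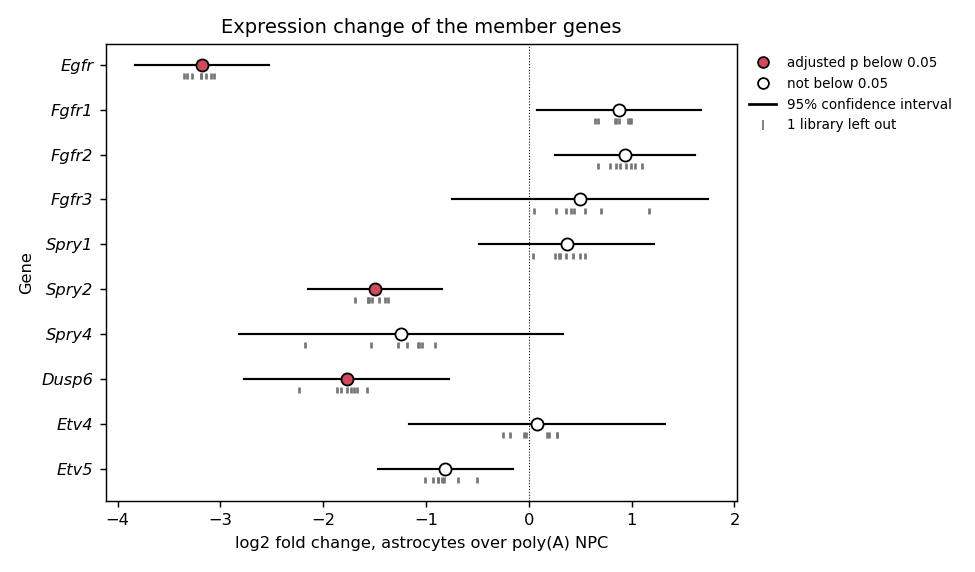
Log2 fold change of each gene (y axis) between 5 astrocyte and 3 poly(A) NPC libraries (x axis), with its 95% confidence interval (line) and the values with 1 library left out (grey ticks). Filled points, those of *Egfr* (-3.18), *Spry2* (-1.497) and *Dusp6* (-1.77), had an adjusted p below 0.05, and the tick of *Spry4* far to the left is the fit without clone C2 (-2.18).

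Next, the other genes of the pathway were examined by role, in 6 lists of ligands, receptors, adaptors, targets and inhibitors. Of 109 listed genes 93 were tested, of which 10 rose, 11 fell and 72 were not called, or 22.6% called against 25.5% of all genes. The median log2 fold change was 0.06, against 0.08 over all genes. No excess of calls was seen in the lists as a whole.

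The list with the largest count of calls was that of early response genes and ETS targets outside the members, with 6 of 19 lower and 1 higher (36.8% called, median log2 fold change -0.81). *Ccnd1*, which encodes cyclin D1 of the G1 phase, was at 1328 CPM in F5, 1410 in mG2 and 2805 in mG6 and at 27.3 (G4) to 246 CPM (C2) in astrocytes, and fell by 19.2-fold (adjusted p = 0.00611). *Myc*, a growth-promoting transcription factor, was at 102 to 165 CPM in NPCs and 7.68 to 15.8 CPM in astrocytes, and fell by 12.1-fold (adjusted p = 9.54e-05). The early response factor *Egr3* fell by 25.8-fold from a low mean of 4.69 CPM (adjusted p = 0.0132). *Fosl2*, an AP-1 subunit, was the gene of this list that rose, from 10.7 ± 3.56 (SD, n = 3) to 54.7 ± 25.8 CPM (SD, n = 5), by 5.1-fold (adjusted p = 0.00976). The fall of *Ccnd1* and *Myc* ran alongside that of the proliferation markers, whose part in it was not tested.

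Negative regulators other than the members moved in both directions, with 3 of 21 higher and 2 lower. *Dusp1*, a MAP kinase phosphatase of the nucleus, was at 7.6 to 10.4 CPM in NPCs and 35.2 (mC3) to 78.9 CPM (129) in astrocytes, and rose by 5.85-fold (adjusted p = 0.00185). *Dusp7*, a cytoplasmic ERK phosphatase related to *Dusp6*, was at 33.1 to 74.4 CPM in NPCs and 11.1 to 17.9 CPM in astrocytes, and fell by 3.75-fold (adjusted p = 0.00285). *Errfi1*, an inhibitor of the EGF receptor, rose by 2.13-fold from 22.1 to 47 CPM (adjusted p = 0.0301). *Dusp8* rose by 2.39-fold from a mean of 1.83 CPM (adjusted p = 0.0263), and *Dusp9*, whose mean was 0.344 CPM in NPCs, fell by 5.65-fold (adjusted p = 0.00603).

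Of the ligands, 1 of 9 EGF family genes tested rose, and 2 of 6 FGF genes rose and 1 fell. *Hbegf*, a membrane-bound ligand of the EGF receptor, was at 32.9 to 69.8 CPM in NPCs, at 606 in G4 and 493 in C2, and at 102 to 202 CPM in the astrocyte clones with code A234. It rose by 5.46-fold (adjusted p = 0.0275). *Fgf1*, an FGF that binds all FGF receptors, rose by 3.6-fold (adjusted p = 0.0246), from 157 CPM in F5, 149.6 in mG2 and 419.6 in mG6 to 419.5 (129) to 1206 CPM (C2), so that the lowest astrocyte clone met the highest NPC clone. *Fgf1* lies near *Spry4* on chromosome 18 and shared its allelic state. *Fgf17* rose by 4.69-fold (adjusted p = 0.0361) and *Fgf18* fell by 4.68-fold (adjusted p = 0.0327), both with means under 1 CPM in either group.

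Among other receptors and coreceptors, 1 of 16 rose and 1 fell. *Gpc6*, a glypican carrying heparan sulphate, rose by 4.31-fold (56.3 ± 8.61 to 243 ± 106 CPM, SD, adjusted p = 0.0062). *Sdc3*, a syndecan, fell by 4.25-fold (adjusted p = 0.0148), with an NPC mean of 328 CPM that drew on clone F5 at 628 against 191 in mG2 and 167 in mG6. Of the adaptors and kinases of the cascade, *Sos2*, which activates RAS, rose by 1.85-fold (adjusted p = 0.00941), *Mapk3*, which encodes ERK1, rose by 1.67-fold (0.0427), the docking protein gene *Gab2* fell by 1.68-fold (0.038), while 19 of 22 were not called.

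**Figure D3:**
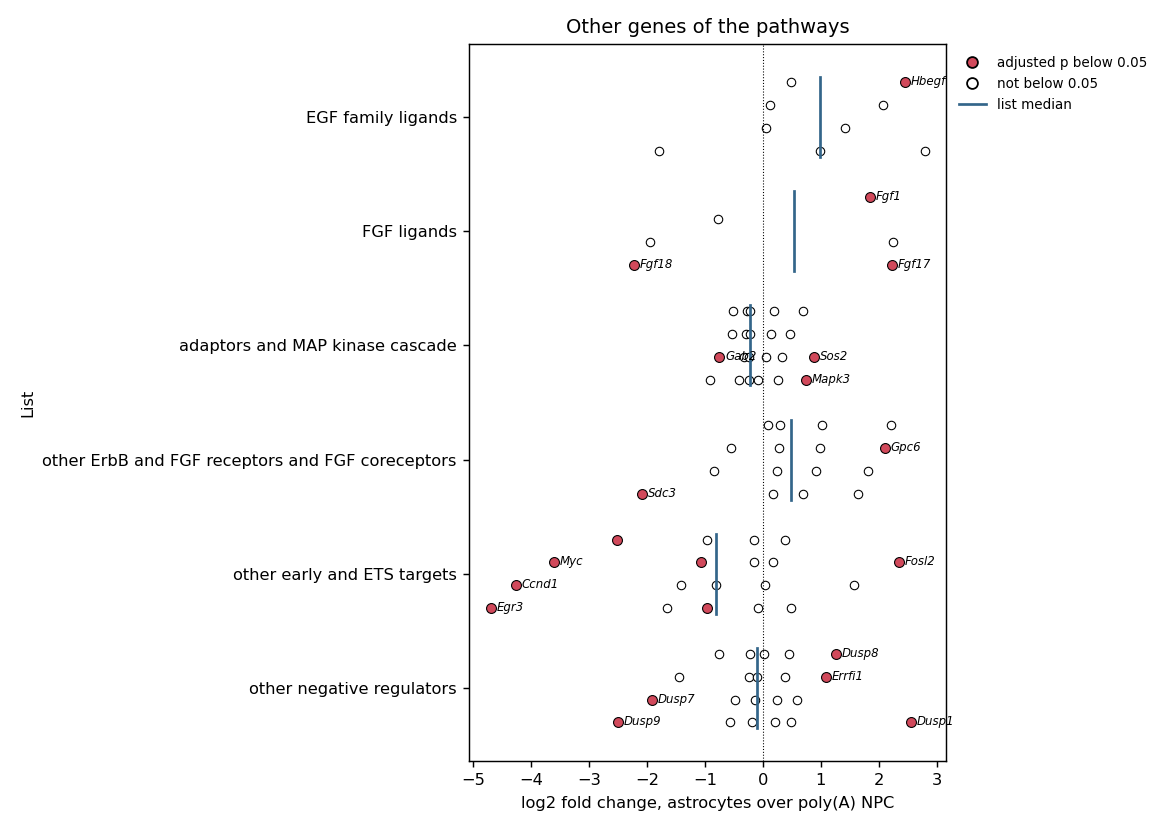
Log2 fold change between astrocytes and poly(A) NPCs (x axis) for the 93 tested genes of the 6 lists (y axis, points spread vertically for visibility only), with filled points for an adjusted p below 0.05 and a vertical line at each list's median. Names mark up to 3 called genes per direction and list; *Egr3*, *Ccnd1* and *Myc* lie farthest to the left.

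Expression was then compared among the 4 ribosomal RNA-depleted NPC clones, all male and grown in the same medium, with 2 libraries each. Here 5 of 10 members differed between clones (edgeR, adjusted p below 0.05 over 17095 genes), against 16.6% of all genes. At an unadjusted p below 0.05, 6 members and 5262 genes passed. *Fgfr3* and *Etv4* kept their call with any 1 library left out (adjusted p up to 0.0152 and 0.036). *Fgfr2* and *Etv5* lost it without either library of Ch3 or of Ch7 (adjusted p up to 0.207 and 0.237), and *Spry4* without the second library of Ch3 (0.061) or either of Ch7 (0.0795 and 0.0999). The study's methods speak of biological replicates but do not say that the 2 libraries of a Ch clone came from separate cultures, so these p-values measure the spread between libraries, which may in part be technical. *Fgfr3* varied most, at 40.3 and 31.3 CPM in Ch3, 43.1 and 59.2 in Ch5, 57.2 and 75.8 in Ch8, and 88.3 and 99.0 in Ch7. Its mean in Ch7 was 2.62-fold that in Ch3 (adjusted p = 0.00186). *Fgfr2* had the same lowest and highest clones, from 29.4 and 29.8 CPM in Ch3 to 40.2 and 44.5 in Ch7 (1.43-fold, adjusted p = 0.0453).

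The targets of FGF signalling that differed were highest in Ch3. *Etv4* was at 111 and 115 CPM in Ch3 and at 69.7 to 86.7 in the other 6 libraries (1.6-fold from Ch8 to Ch3, adjusted p = 0.00204). *Spry4* was at 275 and 292 CPM in Ch3, 278 and 254 in Ch8, 235 and 244 in Ch5, and 203 and 198 in Ch7 (1.41-fold, adjusted p = 0.0104). *Etv5* was at 481 and 486 CPM in Ch3 and 355 and 369 in Ch7 (1.34-fold, adjusted p = 0.0295), with Ch5 and Ch8 between 425 and 455. For *Etv4* and *Etv5* both Ch3 libraries lay above all libraries of the other clones, and for *Spry4* 1 library of Ch8 reached the Ch3 range.

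*Dusp6* ranged over 1.22-fold (594 to 724 CPM, adjusted p = 0.0659), *Egfr* over 1.23-fold (305 to 374 CPM, adjusted p = 0.278), *Spry1* over 1.18-fold (adjusted p = 0.194), *Spry2* over 1.07-fold (adjusted p = 0.759) and *Fgfr1* over 1.05-fold (adjusted p = 0.852). *Fgfr1* made up 72.8% of the FGF receptors per kb in Ch3 and 55.2% in Ch7, the clone in which *Fgfr3* reached 32.0%. Levels in these libraries were not tested against poly(A) NPCs, since library preparation and clone changed together.

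**Figure D4:**
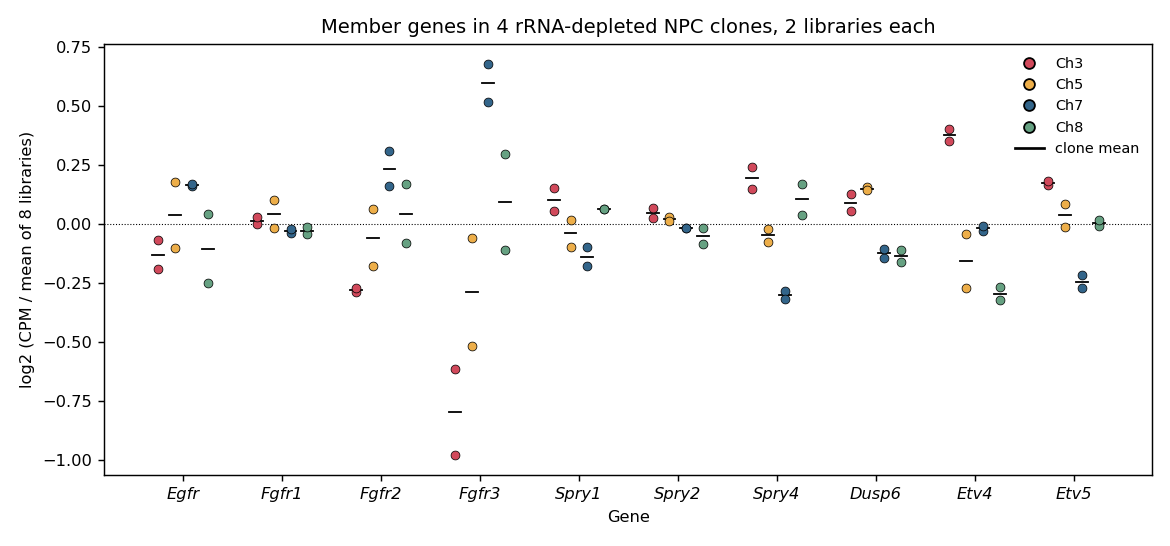
Expression of the 10 genes (x axis) in the 8 ribosomal RNA-depleted NPC libraries, as log2 of CPM over the mean of the 8 libraries (y axis), with a colour for each clone and a short line at the clone mean. *Fgfr3* spreads widest, from Ch3 (mean 35.8 CPM) up to Ch7 (93.6 CPM), while the clone means of *Spry2* and *Fgfr1* stay within 1.07-fold and 1.05-fold.

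Allelic expression was measured as the percentage of allele-specific reads from the Cast allele, with both libraries of a Ch clone summed, and each value rests on 202 to 65657 allele-specific reads. Counting error is given as 95% Wilson intervals, which treat reads as independent and cover counting error only. In 117 of 120 combinations of gene and clone the ratio lay between 35 and 65% and expression was biallelic, compared with 82.1% of all autosomal values with at least 20 reads. The autosomal values include ones on fewer reads than any member had, so counting error is not matched in this comparison. The remaining 3 were *Spry4* in NPC clone mG2, *Spry4* in astrocyte clone G4 and *Spry1* in G4. In each of these, the chromosome as a whole had departed from balance.

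*Spry4* (ENSMUSG00000024427.6, on chromosome 18) in mG2 had 14 Cast reads of 11506, a Cast percentage of 0.122% (95% Wilson interval 0.0725 to 0.204%). It was at 47.2% in F5 and 43.2% in mG6, at 46.2 to 47.6% in the Ch clones, and at 51.1 to 55.6% in the 4 astrocyte clones other than G4. The median gene of chromosome 18 was at 0.0672% in mG2, and 290 of its 291 measured genes were under 15%. The other, *Gm10268*, was at 100% in mG2 and at 99.4% in F5. Within 1 Mb, *Ndfip1* was at 0% (3242 reads), *Rnf14* at 0.153% and *Fgf1* at 0.346% in this clone. Total expression of the chromosome was not lower in mG2, as the median gene of chromosome 18 had 1.02 times its mean in the other poly(A) NPC clones, and *Spry4* in mG2 (406 CPM) was between F5 and mG6. In astrocyte clone G4, *Spry4* was at 66.1% (64.6 to 67.6%) beside a chromosome median of 65.2%, and *Spry1* at 67.7% (66.6 to 68.7%) beside a median of 66.1% for chromosome 3. The median gene in G4 was at 1.46 times its mean in the other astrocytes on chromosome 18 and 1.43 times on chromosome 3. *Spry1* in the other 11 clones was at 48.7 to 59.5%. Without clones G4 and mG2 the log2 fold change between cell types was -1.20 for *Spry4* (adjusted p = 0.445) and 0.22 for *Spry1* (adjusted p = 0.818), so neither was called with or without them.

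Away from these, modest skews recurred in clone after clone. *Etv5* favoured the 129 allele in all 12 clones, at 40.4 (mE6) to 45.3% Cast, with chromosome medians of 48 to 49.2%. Of 8598 autosomal genes measured in all 12 clones, 13.4% were below 50% in every one. *Fgfr1* was at 41.7 (C2) to 50% (G4) and *Spry2* below 50% in 11 of 12 clones. *Egfr* was above 50% in 11 of 12 clones. *Spry1* was too, but that count includes G4 with its unbalanced chromosome 3, and the exception was C2 at 48.7%. For comparison, 8.05% of the 8598 genes were above 50% in all 12 clones. *Egfr* lay between 51.9 and 59.1% apart from astrocyte clone 129, at 49.2% (45.6 to 52.9%, 719 reads). *Dusp6* was at 49.0 to 51.9% in 11 clones and 56.3% in clone 129. *Fgfr2* had the lowest ratio of a receptor, 38.8% in mC3, with 42.8 to 52.3% in the other clones. *Etv4* and *Fgfr3* fell on both sides of 50%, between 45.3 and 51.8% and between 45.7 and 53.8%.

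The allelic ratio did not differ between astrocytes and poly(A) NPCs for any member at an adjusted p below 0.05 (edgeR on allelic counts, 10959 genes), and 0.703% of all genes were called. At an unadjusted p below 0.05, 1 member and 1565 genes passed. That member was *Spry2*, with 38.1, 40.5 and 38.9% Cast in NPC clones F5, mG2 and mG6 and 44.1, 43.5, 44.8, 42.8 and 43.6% in astrocyte clones 129, C2, G4, mC3 and mE6. The groups did not overlap, and the log2 ratio of Cast to 129 reads was higher in astrocytes by 0.27 (SE 0.0497, adjusted p = 0.0633). In the Ch clones, however, *Spry2* was at 47.0 to 50.1%, and with all 7 NPC clones the difference was -0.03 (adjusted p = 0.924). The Ch libraries were depleted of ribosomal RNA and all astrocyte libraries were poly(A)-selected, so that fit mixes library preparation with cell type. For *Spry4* the difference of 2.18 (SE 2.04, adjusted p = 0.724) rested on clone mG2, and without mG2 and G4 it was 0.46 (adjusted p = 0.264).

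Among the Ch clones 1 member, *Egfr*, was called for the allelic ratio (adjusted p = 0.0275), against 8.85% of 10083 genes. Its Cast percentage was 56.2 and 57.2% in the libraries of Ch3, 54.0 and 51.2% in Ch5, 54.2 and 54.8% in Ch7, and 52.5 and 51.2% in Ch8. Both Ch3 libraries were the highest, and the poly(A) NPC clones were at 52.3% (F5), 57.1% (mG2) and 59.1% (mG6). The call was lost when any library but the first of Ch5 was left out. The other 9 members had adjusted p-values of 0.7 or above.

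**Figure D5:**
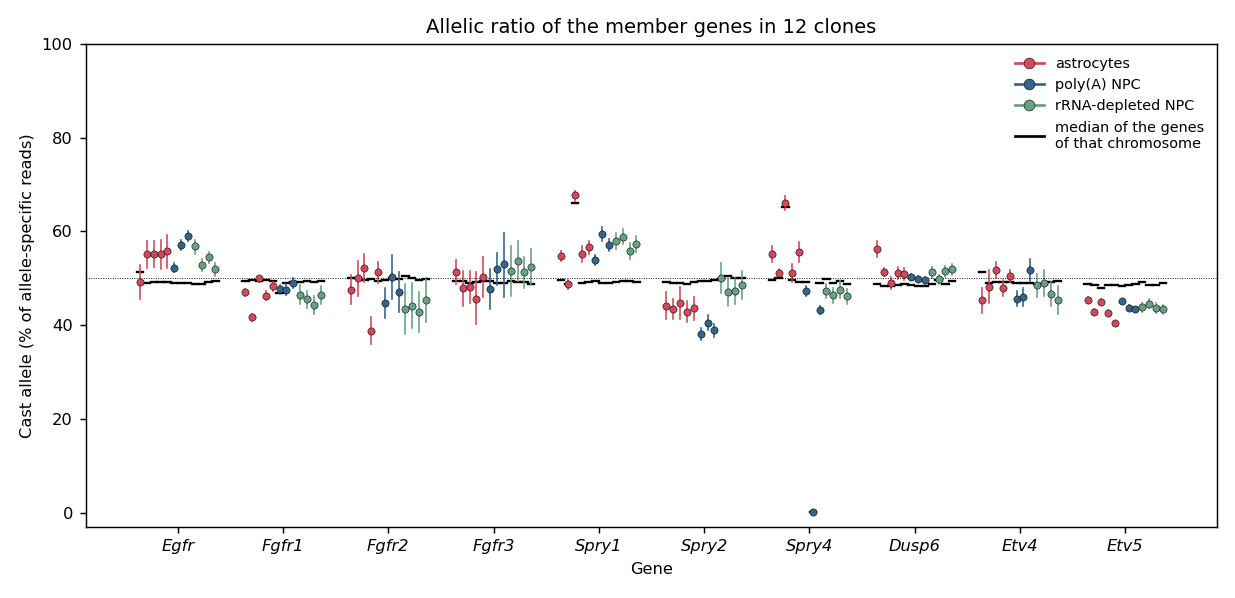
Percentage of allele-specific reads from the Cast allele (y axis) for the 10 genes (x axis) in 12 clones, coloured by kind of library, with 95% Wilson intervals as vertical lines and a black dash at the median gene of the same chromosome in that clone. Points follow the dash where it departs from 50%, as for *Spry4* in mG2 (0.122%) and in G4 (66.1%) and *Spry1* in G4 (67.7%).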

How the data were processed

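Per the authors' methods, reads were aligned to a GRCm38 (mm10) genome masked at strain variants with TopHat2 2.1.0 and Bowtie2, assigned to alleles with SNPsplit and counted with strand by featureCounts 1.5.1 and biological replicates were merged. The deposited files give raw counts per gene (all reads, Cast reads and 129 reads) and a Cast fraction deposited by the authors, which was not used here. Symbols were matched for 32722 of 50600 genes through RefSeq tables.

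Expression was tested with edgeR 4.0.16 (quasi-likelihood, TMM, filterByExpr) in R 4.3.3, between cell types (5 against 3 libraries) and among the 4 Ch clones, and allelic counts likewise with library terms, for genes with 20 or more allele-specific reads in every library. p-values were adjusted by the Benjamini-Hochberg method over all genes tested, with a threshold of 0.05. They measure the spread between clones, 1 library each, in the comparison of cell types, and between the 2 libraries of a clone among Ch clones. CPM used TMM-scaled library sizes, with 0.5 added before the logarithm in permutation tests. Exon lengths were GENCODE unions. The tests were checked on simulated data, in which the expression test between cell types missed most of the planted changes. Far fewer genes were changed there than were called in these data, so how often it missed need not carry over. A member not called between cell types is in any case not shown to be unchanged. DESeq2 1.42.0, RLE normalisation, no filter, sex, title codes, all NPC clones, left-out libraries and read minimums of 10 and 50 were tried. Fitting without clones G4 and mG2 was added after seeing the data. The genes, lists and tests were chosen with earlier results of these data known. Named genes were the 10 members, up to 3 genes called per direction and list by absolute log2 fold change, 3 genes most correlated with each of *Egfr* and *Dusp6*, and markers as a check of the labels.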

Additional observations from a re-analysis of the deposited data

Results flagged for a closer look

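Both measures of the 10 genes were screened in the 5 astrocyte clones for a clone far from the others, 20 sets of values in all, of which chance alone would flag about 1 in 20. In 3 sets a clone stood apart. *Spry4* was at 503 CPM in clone C2, with the next clone at 140 CPM. *Etv5* was at 400 CPM in clone 129, with the next clone at 629 CPM. The Cast percentage of *Egfr* was 49.2% in clone 129, with the next clone at 55.1%.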

How the results depend on the processing

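*Egfr*, *Spry2* and *Dusp6* stayed lower in astrocytes under every alternative run, and *Egfr* kept its call. With the B129 astrocytes only, 1 member was called lower (*Egfr*). DESeq2 called 1 member higher (*Fgfr2*), as did the B129 astrocytes and all 7 NPC clones (*Fgfr1*, 1 each). Every fit with all NPC clones joins the ribosomal RNA-depleted Ch clones to the poly(A) ones, so library preparation also differs between its groups. With 1 library left out, 2 to 4 members were lower and 0 to 1 higher. *Etv4* changed sign with the B129 astrocytes (-0.28), all NPC clones (-0.10), mean log2 CPM (-0.17) and left-out libraries (-0.25 to 0.27), *Fgfr3* with all NPC clones (-0.19) and *Spry1* with the A234 astrocytes (-0.12), and none of these was called. Uncalled allelic differences that turned sign were *Spry2* with all NPC clones (-0.0297), *Etv4* without G4 and mG2 (-0.0407) and, over left-out libraries, *Etv4* (-0.00769 to 0.17), *Fgfr2* (-0.0378 to 0.173) and *Spry1* (-0.176 to 0.107).

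Over all genes, 2284 were lower and 2360 higher. Lower were 1507 with B129, 4344 with all NPC clones, 847 without G4 and mG2 and 1269 to 2344 with 1 library left out (1440 without F5, 1269 without mG2). Higher were 1524 with A234, 4395, 654 and 1000 to 2505 (1227 without F5, 1000 without mG2, 1205 without mG6). In the lists, 11 fell (6 with A234, 22 with all NPC clones, 6 without G4 and mG2, 7 to 13 with 1 left out, 7 without mC3, F5 or mG2) and 10 rose (16 with DESeq2, 26, 2 and 3 to 15, with 6 without mC3, 5 without F5, 3 without mG2 and 6 without mG6). Among Ch clones 2834 genes differed (4361 without the filter, 1509 to 3244 with 1 left out, 1868 and 1509 without a library of Ch3, 1832 and 1803 without one of Ch7), and 2 to 5 members, the count falling to 3 or 2 without a library of Ch3 and to 2 without one of Ch7. For allelic ratios 77 genes were called between cell types (705 with all NPC clones, 2 without G4 and mG2, 5 to 82 with 1 left out, namely 41 without C2, 33 without G4, 29 without mC3, 20 without mE6, 5 without F5, 14 without mG2 and 22 without mG6), with 0 members in each, and 892 among Ch clones (762 to 1024, with 0 to 1 members). The cause of these shifts was not tested.

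Library numbers of the Ch clones showed no uniform pairing (correlations of deviations -0.243 to 0.374 over 6 clone pairs, 2 of them over 0.1). Whether some clones were paired was not settled by these values. With a replicate block 6 members (*Dusp6* joined, adjusted p = 0.0356) and 3391 genes differed in expression, and 1 member and 888 genes in allelic ratio. The number of allele-specific reads, which was lower in the Ch libraries, sets the counting error of each ratio but not its spread between libraries.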
